A study of Canis lupus familiaris with 5 samples.

Results

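Iron enters marrow cells bound to transferrin, is held in ferritin, leaves through ferroportin and is recycled from heme, and 8 genes of these steps were followed through dog bone marrow. They were TFRC (transferrin receptor), SLC11A2 (the iron transporter DMT1), FTH1 and FTL (the heavy and light ferritin chains), SLC40A1 (ferroportin), HMOX1 (heme oxygenase), CD163 (the receptor for hemoglobin bound to haptoglobin) and SLC11A1 (the phagosomal metal transporter NRAMP1). They were chosen by name for their roles, with earlier results of these data known. All 8 were present in the deposited matrices, as 9 of 20257 feature rows, because FTH1 had a second row. The material was femoral bone marrow of 3 healthy wild-type dogs, flushed from femurs kept on ice and freed of red cells by ammonium-chloride-potassium lysis. Whole marrow 1, 2 and 3 are unsorted suspensions, 1 library for each dog, which had to hold over 70% viable cells and under 25% neutrophils. CD34-sorted 1 and 2 are viable cells carrying CD34, a surface protein of stem and progenitor cells, taken by flow cytometry from the marrows of dogs 2 and 3. No animal received a treatment in the labels, ages are not given in the sources used here, and each library was loaded for 5000 cells of mixed types, so every population described is a set of barcodes picked by transcript counts.

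Developing red cells take up diferric transferrin through TFRC and endocytosis, and DMT1 then carries the iron out of the endosome toward the mitochondrion, where heme is completed. Ferritin heavy chains oxidise iron and light chains help to form the mineral core, while ferroportin is the known cellular iron exporter. Macrophages of the marrow engulf spent red cells and expelled nuclei, open the heme ring with heme oxygenase and return the iron through ferroportin, and they capture free hemoglobin with CD163.

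Each population was a gate on raw unique molecular identifiers (UMIs, 1 per captured transcript) among barcodes in which 200 genes or more were detected and no more than 10% of UMIs were mitochondrial. The stem-like gate needed 4 UMIs of SULT1B1 and TFPI together, and the GATA1 progenitor gate 2 of GATA1 with the globin chaperone AHSP under 0.2% of UMIs. Erythroblast gates needed AHSP at 0.2% or more, split into cycling and non-cycling at 5 UMIs of MKI67 and TOP2A. That split is a raw count, so a shallow barcode can fall in the non-cycling gate whatever its cell cycle state. The CAMP gate needed 1% CAMP, the VCAN gate 2 UMIs, the C1Q gate 5 UMIs of C1QA, C1QB and C1QC together and the VPREB1 gate 5 UMIs. In whole marrows 1, 2 and 3 the gates held 62, 29 and 44 stem-like cells, 24, 42 and 28 GATA1 progenitors, 331, 401 and 224 cycling erythroblasts and 104, 41 and 38 non-cycling erythroblasts. They also held 2466, 1457 and 1406 CAMP cells, 565, 512 and 322 VCAN cells, 63, 62 and 31 C1Q cells and 206, 57 and 182 VPREB1 cells. The sorted libraries held 1534 and 1675 stem-like cells, 267 and 329 GATA1 progenitors and 2122 and 1560 VPREB1 cells, and under 20 cells of every other gate. Gates could overlap, and between 49.8% and 54.1% of whole-marrow cells fell in at least 1.

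Levels are given as CPM, the UMIs of a gene scaled to a fixed total of UMIs of the gate. In all, 24708 of 27953 barcodes were kept, libraries held 46114431 to 70169186 UMIs, and 21 to 34 barcodes of each library also occurred in another. Markers matched most gate names: 6 to 8 of the 8 stem cell markers were found in the stem-like gates, summing to 487, 718 and 495 CPM in whole marrow and 780 and 548 CPM in the sorted libraries, all 9 erythroblast markers were found in both erythroblast gates of whole marrow, and all 6 neutrophil granule markers in the CAMP gate. Many stem-like cells were also in the VPREB1 gate, though: 43 of 62, 8 of 29 and 21 of 44 in whole marrow. In the sorted libraries 558 of 1534 and 803 of 1675 were. The C1Q gate showed 7 to 9 of the 9 macrophage markers found in the files, summing to 1073, 1561 and 1151 CPM against 37.9, 45.6 and 57.2 CPM in the VCAN gate. Erythroblast markers in the C1Q gate summed to 155, 1835 and 173 CPM, so marrow 2 was high, and 2, 4 and 0 C1Q cells were also at or over the AHSP limit. The GATA1 progenitor gate of whole marrow was mixed: neutrophil granule markers summed to 1557, 634 and 2182 CPM there against 6.57 and 9.52 CPM in the sorted gate, and 4 eosinophil, basophil and mast cell markers to 5.20, 531 and 881 CPM against 64.8 and 100.2 CPM. The VCAN gate went against a monocyte label in part. Its 6 monocyte markers summed to 1561, 1671 and 1372 CPM, but 79 of 565, 72 of 512 and 45 of 322 cells were also in the cycling erythroblast gate, and the 9 erythroblast markers summed to 2263, 1594 and 2332 CPM. Those cells hold far more UMIs than the rest, so fold changes of the members against the VCAN gate are given also for cells that fall in exactly 1 gate. Median depth differed widely, from 44491, 43225 and 60474 UMIs a cell in cycling erythroblasts to 2282, 2182 and 4454 in non-cycling ones and 2003, 1328 and 1780 in C1Q cells. A change in CPM cannot be told apart here from a change in the rest of a cell's RNA.

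**Figure D1:**
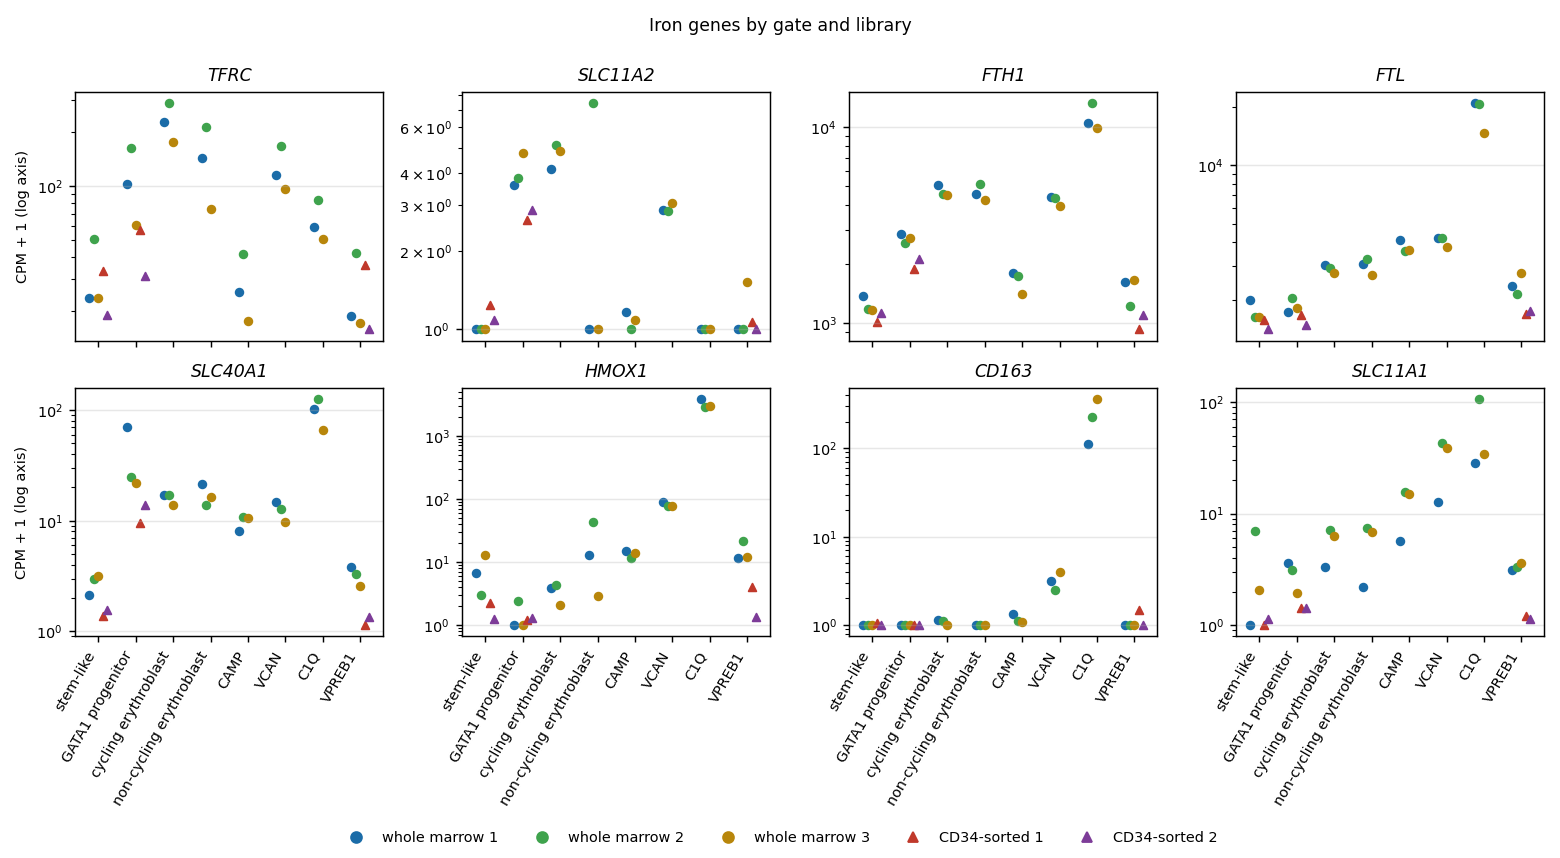
Level of each of the 8 genes (CPM + 1, log axis) in every gate with at least 20 cells, 1 point per library, whole marrow and CD34-sorted libraries marked separately. TFRC peaks in cycling erythroblasts at 175 to 289 CPM, while FTH1, FTL, SLC40A1, HMOX1 and CD163 peak in the C1Q gate.

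TFRC was most abundant in cycling erythroblasts and rose on entry into that gate from the GATA1 progenitor gate. Its level was 226, 289 and 175 CPM in cycling erythroblasts of whole marrows 1, 2 and 3, against 101, 161 and 59.6 CPM in GATA1 progenitors. Non-cycling erythroblasts held 142, 212 and 73.6 CPM. Every library had its highest TFRC level in the cycling gate and a lower one in both others, although the ranges over libraries overlap because marrow 2 was high and marrow 3 low in all 3 gates. Within libraries, edgeR's quasi-likelihood test on gate sums gave a log2 fold change of 1.51 ± 0.15 (SE) for cycling erythroblasts over GATA1 progenitors (Benjamini-Hochberg adjusted p = 6.4e-10). Over the alternatives it ran from 1.17 to 1.80. From cycling to non-cycling cells TFRC fell by 0.87 ± 0.15 on the log2 scale (edgeR adjusted p = 0.00018), a call that was lost when libraries were not blocked (adjusted p = 0.23). Depth helps to set these gates, so the fall cannot be read as one of cell cycle exit or maturation alone. TFRC was found in 97.0% (95% exact binomial interval 94.5 to 98.5), 99.5% (98.2 to 99.9) and 98.2% (95.5 to 99.5) of cycling erythroblasts, and in 3.11%, 8.84% and 11.2% of cells with T-cell receptor transcripts, which had a median of 2525 to 4850 UMIs. With every cell thinned to 1000 UMIs the shares were 20.2%, 26.9% and 17.9% against 0.784%, 2.04% and 0.559%. Cycling erythroblasts made up 4.54%, 8.75% and 5.16% of cells and supplied 79.3%, 82.2% and 82.0% of all TFRC UMIs of the 3 whole marrows. They were far deeper than the median kept cell, at 2694, 3689 and 4344 UMIs, so they also held more of all UMIs than of cells. The share of TFRC UMIs over the share of cells is therefore no measure of enrichment, for which the CPM stand.

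SLC11A2, the endosomal partner of TFRC, was scarce and lay almost wholly in the same cells. It reached 3.12, 4.12 and 3.85 CPM in cycling erythroblasts, from 46, 74 and 52 UMIs, and 2.60, 2.81 and 3.78 CPM in GATA1 progenitors, from 2, 4 and 4 UMIs. Cycling erythroblasts held 83.6%, 89.2% and 91.2% of its UMIs in the 3 whole marrows, and being deep they also held more of all UMIs than of cells. No UMI was seen in the stem-like gate of whole marrow or in the C1Q gate. Over the 3 libraries a count of 0 allows up to 1.30 CPM in the stem-like gate, so SLC11A2 was at least 2.85-fold higher in cycling erythroblasts by a floor of 3 UMIs over the group. In the C1Q gate the same floor is 4.06 CPM, so a level like that of the erythroblasts was not detectable at this depth. It was too low to enter the whole-marrow tests between gates.

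The ferritin chains rose together on the same step. FTH1 stood at 5103, 4583 and 4537 CPM in cycling erythroblasts and at 2867, 2579 and 2716 CPM in GATA1 progenitors, with no overlap between the gates. FTL stood at 3066, 2939 and 2766 CPM against 1745, 2065 and 1833 CPM, again without overlap. The rises were 1.15 ± 0.14 for FTH1 (edgeR adjusted p = 6.7e-08) and 0.98 ± 0.15 for FTL (adjusted p = 3.3e-06) on the log2 scale. Their size depends on the scaling: over the alternatives they ran from 0.81 to 1.40 for FTH1 and from 0.64 to 1.20 for FTL. Without scaling factors the median of all genes lay 0.33 lower in this step. From cycling to non-cycling erythroblasts neither passed the test: FTH1 was 4589.8, 5166 and 4281 CPM and FTL 3084, 3268 and 2703 CPM in non-cycling cells, giving -0.12 ± 0.14 (adjusted p = 0.64) and -0.06 ± 0.15 (adjusted p = 0.86).

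Ferroportin moved the other way. SLC40A1 was 68.9, 23.9 and 20.8 CPM in GATA1 progenitors of whole marrows 1, 2 and 3 and 16.2, 16.1 and 13.0 CPM in cycling erythroblasts, lower in all 3 libraries, with marrow 1 far above the others in the progenitor gate. The log2 fold change was -0.85 ± 0.24 (edgeR adjusted p = 0.0046). Without whole marrow 1 it was -0.25 (adjusted p = 0.45), and in cells of exactly 1 gate, where marrow 1 had too few progenitors to enter, it was -0.29 (adjusted p = 0.52). The progenitor gate of marrow 1 also held 48.1 CPM of megakaryocyte markers against 4.21 and 4.73 CPM in the other 2 marrows (2 of 5 listed markers, PPBP and ITGB3, were in the files) and the fewest eosinophil, basophil and mast cell markers, and the part of either in the SLC40A1 level was not tested. Non-cycling erythroblasts held 20.3, 12.9 and 15.5 CPM, and the difference from cycling cells was 0.04 ± 0.36 (adjusted p = 0.97).

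Inside the cycling erythroblast gate SLC40A1 also fell as AHSP rose, and FTH1 rose. With AHSP at 0.2 to 0.5%, 0.5 to 1% and 1% or more of UMIs, SLC40A1 was 27.0, 19.2 and 13.7 CPM in marrow 1, 22.6, 16.4 and 12.2 CPM in marrow 2 and 17.5, 14.1 and 10.5 CPM in marrow 3. FTH1 went from 4297 to 4704 and 5367 CPM in marrow 1, from 3876 to 4636 and 4907 CPM in marrow 2 and from 4189 to 4461 and 4714 CPM in marrow 3. TFRC showed no common order, at 168, 215 and 237 CPM, 307, 284 and 286 CPM, and 156, 179 and 173 CPM. The order of SLC40A1 and of FTH1 was the same in 3 of 3 libraries. The first bin held 20, 59 and 15 cells, and without the 15-cell bin marrow 3 still gives 14.1 then 10.5 CPM for SLC40A1. These orders were not tested, and median depth was lower in the last bin, at 40080.0, 35866 and 52316 UMIs, than in the first, at 50826, 55027 and 69052.

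**Figure D2:**
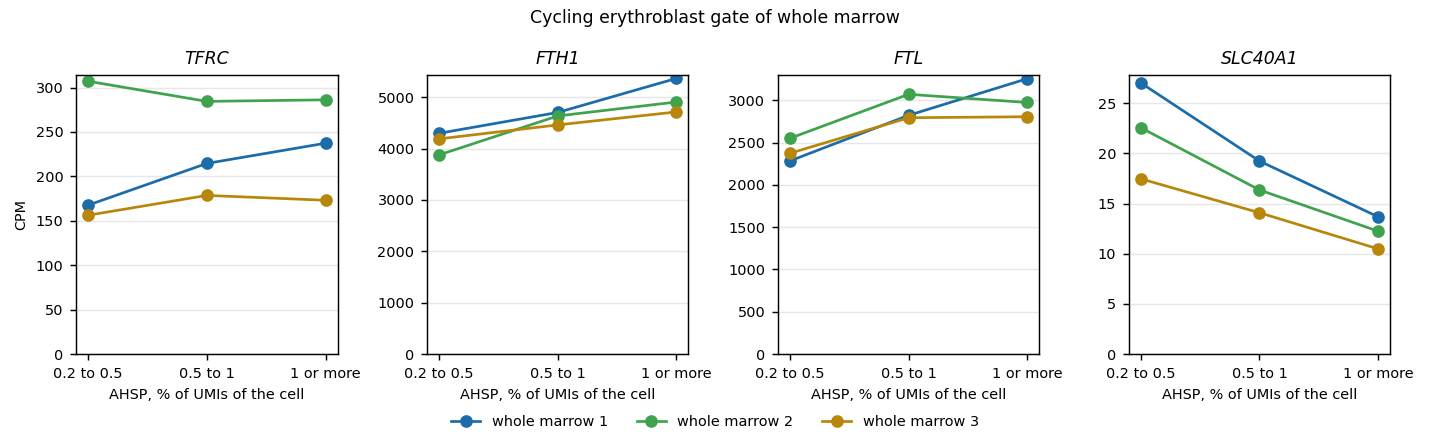
Level (CPM) of TFRC, FTH1, FTL and SLC40A1 in cycling erythroblasts of the 3 whole marrows, in 3 bins of AHSP share (% of UMIs), 1 line per library. SLC40A1 steps down and FTH1 steps up in each library, for example from 27.0 to 13.7 CPM and from 4297 to 5367 CPM in marrow 1.

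Of the 7 members tested on this step, 4 were higher and 1 was lower in cycling erythroblasts than in GATA1 progenitors, where 45.5% of all 7849 genes tested were called, 20.1% higher and 25.5% lower. The fourth rise was SLC11A1 (1.74 ± 0.53, edgeR adjusted p = 0.0083), from 2.60, 2.11 and 0.946 CPM to 2.31, 6.13 and 5.26 CPM, that is from 2, 3 and 1 UMIs in the progenitors. It was not higher in marrow 1, was lost without the library block (adjusted p = 0.16) and without marrow 2 or marrow 3, and the T-cell gate, at 1.69, 7.39 and 9.60 CPM, lay above both gates in marrows 2 and 3. HMOX1 (2.27 ± 1.29, adjusted p = 0.17) was at 0, 1.40 and 0 CPM in progenitors and 2.92, 3.29 and 1.11 CPM in cycling cells, and CD163 rested on 4 UMIs. From cycling to non-cycling erythroblasts 1 member was higher and 1 lower, against 13.2% of genes called, 6.64% higher and 6.6% lower. The higher one was HMOX1, at 11.9, 41.8 and 1.94 CPM from 10, 13 and 1 UMIs (2.43 ± 0.69, edgeR adjusted p = 0.028). Its call did not hold under 6 alternatives, among them non-cycling cells of 5000 UMIs or more and the fits without marrow 1 or 2. In non-cycling cells of exactly 1 gate HMOX1 was at 13.5, 0 and 2.56 CPM, from 8, 0 and 1 UMIs. The high value of marrow 2 thus came from cells that were also in another gate. Of the non-cycling cells, 1, 2 and 0 were also in the C1Q gate. In non-cycling cells the macrophage markers summed to 2.38, 9.65 and 0 CPM, highest where HMOX1 was highest, and their part was not tested. HMOX1 stood below the T-cell gate (33.0, 54.2 and 43.7 CPM) in every library, and whether its level here is background was not tested.

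Other iron and heme genes moved along the same step. Heme synthesis rose nearly as a whole, with 8 of 9 genes higher in cycling erythroblasts than in GATA1 progenitors and a median log2 fold change of 2.58, beside -0.05 over all genes tested. ALAS2, the erythroid first enzyme of the pathway, rose by 7.06 ± 0.59 from a mean of 6.16 to 678 CPM, and PPOX, a late enzyme, by 3.4 ± 0.26 from 31.6 to 259 CPM. The exception was ALAS1, the housekeeping form of the first enzyme, which fell by 2.47 ± 0.45 from 111 to 16.4 CPM. Its progenitor values were spread, at 42.9, 216 and 73.8 CPM, and the CAMP gate held 381, 352 and 300 CPM. The part of other cell types in the mixed progenitor gate was not tested. Of 7 genes of mitochondrial iron and iron-sulfur handling tested, 3 were higher and none lower, led by the iron importer SLC25A37 (mitoferrin 1) at 3.66 ± 0.26 and ABCB10, a transporter that partners it, at 2.96 ± 0.24. Among 3 iron-sensing genes 2 were lower: FBXL5, the ligase subunit that removes iron regulatory protein 2 (-1.32 ± 0.25), and ACO1, iron regulatory protein 1 (-0.76 ± 0.29). NCOA4, which delivers ferritin to lysosomes, rose by 0.78 ± 0.14 and the ferrireductase CYBRD1 by 1.55 ± 0.44, while the metal importer SLC39A14 fell by 2.12 ± 0.28. In marrow 1 the CPM of CYBRD1 was not higher, at 42.1 in cycling cells against 48.1 in progenitors. Of the heme uptake, export and breakdown list 4 of 6 were higher, BLVRB, biliverdin reductase B, by 3.32 ± 0.31. BACH1, a heme-sensing repressor, rose by 1.02 ± 0.23, and HIF1A (-0.52 ± 0.14) and NFE2L2 (-0.50 ± 0.18) fell, making 1 higher and 2 lower of 5 transcription factors. BACH1 too was not higher by CPM in marrow 1, at 28.6 in cycling cells against 31.2 in progenitors. In the remaining list, on transferrin, hepcidin and ferroxidases, 1 of 2 genes was lower, SMAD4. For the genes named here the adjusted p from edgeR's quasi-likelihood test was at most 0.031, for ACO1.

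In non-cycling relative to cycling erythroblasts 6 of the 9 heme synthesis genes were lower and none higher, with a median of -0.69 beside -0.05 over all genes. The largest falls were those of CPOX (-1.04 ± 0.36, edgeR adjusted p = 0.049) and FECH, ferrochelatase (-1.03 ± 0.22, adjusted p = 0.0013). SLC25A37 fell by 1.40 ± 0.24, from a mean of 77.6 to 33.8 CPM, and ABCB10 by 0.77 ± 0.22. FBXL5 rose by 1.73 ± 0.32, from 3.26, 4.73 and 4.89 CPM in cycling cells to 11.9, 22.5 and 13.6 CPM, without overlap, but from only 10, 7 and 7 UMIs in non-cycling cells. The T-cell gate held 14.4, 17.2 and 19.2 CPM of it and the CAMP gate 14.1, 20.2 and 18.3 CPM, ranges that the non-cycling values overlap. NCOA4 fell by 0.49 ± 0.16 (adjusted p = 0.040). Median depth differed widely between these gates, as given above, and 11 of 104, 1 of 41 and 0 of 38 non-cycling cells were also in the CAMP gate. Depth also helps to set the split itself, whose limit is a raw count, and the part of depth in these differences was not tested. Without the TMM scaling factors the median of all genes lay 0.11 higher in this comparison and 0.33 lower in the step from progenitors to cycling cells, and the share of calls that were higher in the first gate went from 50.1% to 65.6% (63.6% with DESeq2 size factors) and from 44.1% to 20.8%.

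**Figure D3:**
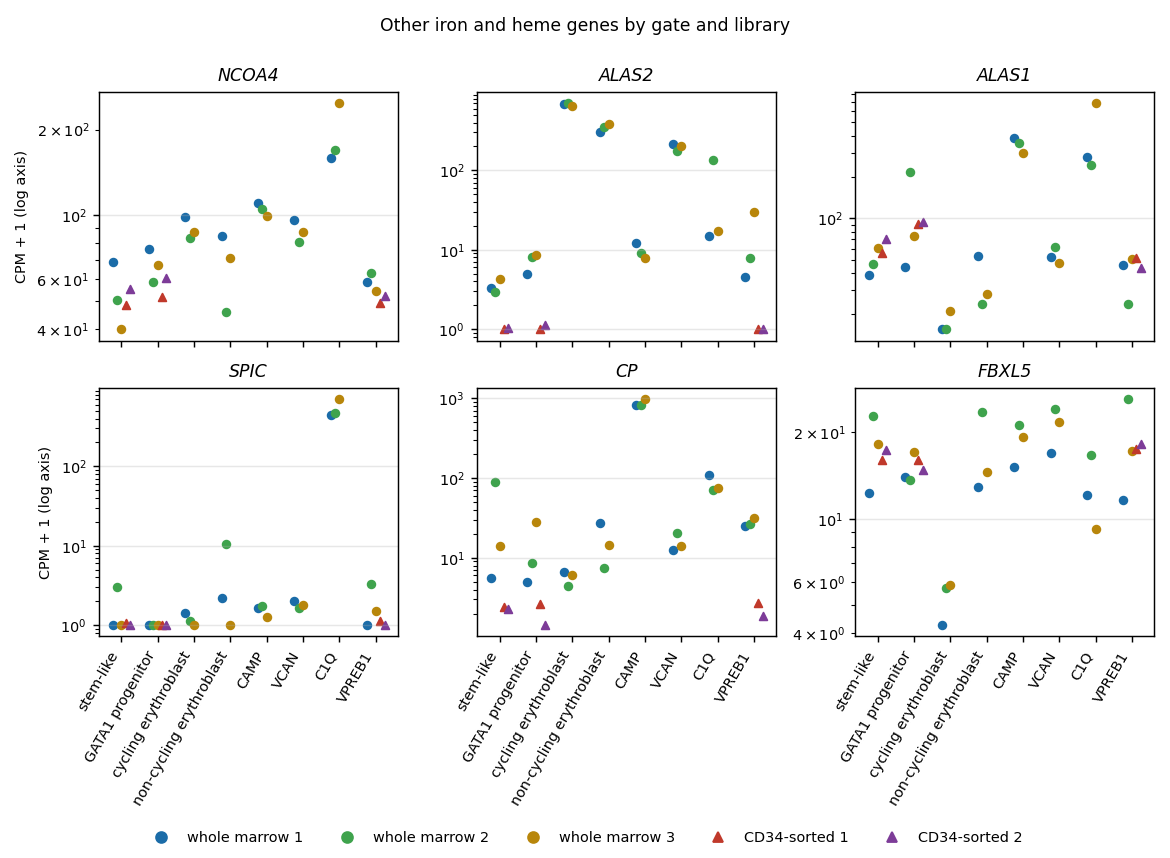
Level (CPM + 1, log axis) of NCOA4, ALAS2, ALAS1, SPIC, CP and FBXL5 in every gate with at least 20 cells, 1 point per library, whole marrow as circles and CD34-sorted libraries as triangles. ALAS2 stands highest in cycling erythroblasts, at a mean of 678 CPM, SPIC in the C1Q gate, at 536 CPM, and CP in the CAMP gate, at 878 CPM.

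The C1Q gate carried the highest level of both ferritins, of ferroportin, of heme oxygenase and of CD163. Of 7 members tested, 6 were higher and 1 lower than in the VCAN gate, where 13.7% of genes were called, 7.44% higher and 6.26% lower, and 6 were higher and 1 lower than in non-cycling erythroblasts, where 23.6% were called, 12.5% higher and 11.1% lower. These comparisons share the C1Q sums, so they are not 2 separate observations. Of the calls against VCAN 54.3% were higher, 67.6% with DESeq2 size factors and 36.2% without scaling, which moved the median of all genes by 0.10 and -0.15, and against non-cycling erythroblasts 52.9%, or 64.7% without scaling, a shift of 0.14. FTH1 was 10528, 13325 and 9967 CPM in C1Q cells and 4421, 4341 and 3970.4 CPM in VCAN cells. FTL was 21057, 20859 and 14638 CPM against 4231, 4207 and 3766 CPM. Both genes were above every VCAN value in all 3 libraries. The log2 fold changes were 1.55 ± 0.14 for FTH1 (edgeR adjusted p = 7e-10) and 2.36 ± 0.16 for FTL (adjusted p = 4.4e-13), and 1.09 ± 0.14 (adjusted p = 7.7e-07) and 2.47 ± 0.16 (adjusted p = 3.3e-13) over non-cycling erythroblasts. In cells of exactly 1 gate the rises over VCAN were 1.69 and 2.11.

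SLC40A1 reached 102, 125 and 65.8 CPM in the C1Q gate, from 37, 32 and 8 UMIs, and 13.8, 11.7 and 8.74 CPM in the VCAN gate. In VCAN cells of exactly 1 gate it was 5.27, 2.49 and 1.57 CPM, so part of the VCAN level came with cells that were also in another gate. The rise over VCAN was 3.30 ± 0.30 (edgeR adjusted p = 7e-10), and 5.28 ± 0.37 in cells of exactly 1 gate. Over non-cycling erythroblasts it was 2.44 ± 0.38 (adjusted p = 1.6e-05). The transcript was found in 30.2% (19.2 to 43.0), 29.0% (18.2 to 41.9) and 22.6% (9.6 to 41.1) of C1Q cells and in 1.17%, 0.680% and 2.79% of T-cell receptor cells, which were deeper.

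HMOX1 and CD163 separated C1Q cells from the rest by the widest margins. HMOX1 was 3832, 2882 and 2985 CPM in the C1Q gate, 89.6, 76.6 and 75 CPM in the VCAN gate and 33.0, 54.2 and 43.7 CPM in T-cell receptor cells. It was found in 93.7% (84.5 to 98.2), 93.5% (84.3 to 98.2) and 90.3% (74.2 to 98) of C1Q cells, and at 1000 UMIs a cell in 84.9%, 87.5% and 84.0%, against 4.71%, 4.76% and 4.47% of T-cell receptor cells. No gate came near the C1Q level, and VCAN was next. The log2 fold change over VCAN was 5.46 ± 0.33 (edgeR adjusted p = 4.6e-09) and 4.72 in cells of exactly 1 gate, and over non-cycling erythroblasts 7.63 ± 0.44 (adjusted p = 3.9e-09). C1Q cells made up 0.864%, 1.35% and 0.714% of cells and supplied 44.0%, 36.0% and 22.1% of the HMOX1 UMIs of marrows 1, 2 and 3.

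CD163 was 111, 224 and 362 CPM in the C1Q gate, from 40, 57 and 44 UMIs, and 2.17, 1.52 and 2.96 CPM in the VCAN gate, with a rise of 6.70 ± 0.41 (edgeR adjusted p = 1.2e-11) that was 6.0 in cells of exactly 1 gate. Not a single UMI was seen in the stem-like, GATA1 progenitor, non-cycling erythroblast or VPREB1 gates of whole marrow. By a floor of 3 UMIs over each group, CD163 was at least 129-fold higher in C1Q cells than in non-cycling erythroblasts, and at least 179-fold, 251-fold and 291-fold higher than in stem-like cells, GATA1 progenitors and VPREB1 cells. It was found in 33.3% (22.0 to 46.3), 38.7% (26.6 to 51.9) and 29.0% (14.2 to 48.0) of C1Q cells and in 3.72%, 2.54% and 6.83% of the deeper VCAN cells. All C1Q cells with CD163 also had HMOX1, 21 of 21, 24 of 24 and 9 of 9, and of those with SLC40A1, 11 of 19, 10 of 18 and 5 of 7 had CD163. Since HMOX1 was found in nearly all C1Q cells, the first of these overlaps adds little, and at this depth a cell without a CD163 UMI is not shown to lack it.

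SLC11A1, which pumps metal out of the phagosome, differed between whole-marrow libraries. With 1 library for each dog, dog and library cannot be told apart. It was 27.6, 106 and 32.9 CPM in C1Q cells, from 10, 27 and 4 UMIs, and 11.7, 41.6 and 37.4 CPM in VCAN cells, so the gates overlap and marrow 3 showed C1Q below VCAN. The call for C1Q over VCAN (1.20 ± 0.30, edgeR adjusted p = 0.0063) was lost in cells of exactly 1 gate (0.32 ± 0.32, adjusted p = 0.55), without the library block and without marrow 1 or marrow 2. Over non-cycling erythroblasts it was 3.66 ± 0.54 (adjusted p = 5.8e-06). Marrow 1 was lowest of the 3 in the VCAN, CAMP and C1Q gates, and over all cells it held 7.98 CPM against 25.2 and 20.9 CPM. Between 44.7% and 50% of SLC11A1 UMIs lay in cells of no gate, at 12.2, 43.2 and 35.6 CPM.

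TFRC in the C1Q gate was thin, with 21, 21 and 6 UMIs, of which 42.9%, 38.1% and 83.3% came from 1 cell in each library. Its level of 58.1, 82.4 and 49.3 CPM was below the 115, 165 and 94.5 CPM of the VCAN gate (-0.84 ± 0.21, edgeR adjusted p = 0.0067), a call lost without the library block and without marrow 2 or marrow 3. The VCAN value falls to 9.33, 10.6 and 12.1 CPM in cells of exactly 1 gate, and the direction then turns, to 1.66 ± 0.50 (adjusted p = 0.020). Against non-cycling erythroblasts TFRC was lower (-1.29 ± 0.23, adjusted p = 8e-05), a call lost without the library block.

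**Figure D4:**
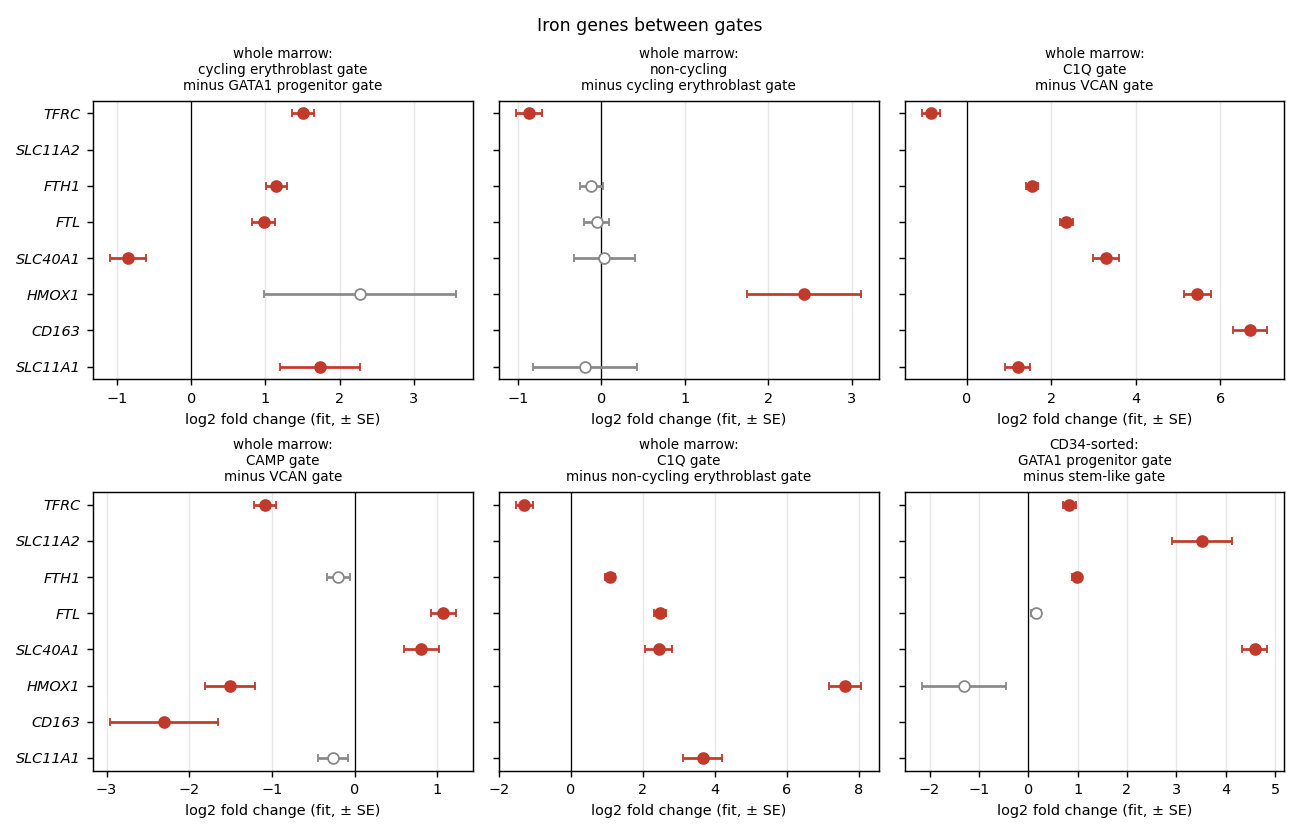
Log2 fold change (± SE) of each member in the first 6 comparisons between gates, from edgeR's quasi-likelihood test, with filled points for adjusted p under 0.05 and open points otherwise (members without a point were not tested or had a gate with no UMI). C1Q cells lie above VCAN cells for HMOX1 and CD163 by 5.46 and 6.70, and cycling erythroblasts lie above GATA1 progenitors for TFRC, FTH1 and FTL by 1.51, 1.15 and 0.98.

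SPIC, a transcription factor known in mice from red-pulp and marrow macrophages that recycle iron, was 437, 463 and 707 CPM in C1Q cells and 0.99, 0.65 and 0.77 CPM in VCAN cells (9.39 ± 0.33, edgeR adjusted p = 1.6e-17), and BACH1 was lower (-1.04 ± 0.35, adjusted p = 0.046), so 1 was higher and 1 lower of 5 transcription factors. Of 3 reductases and iron handling genes 2 were higher, SLC39A14 by 3.11 ± 0.42 and NCOA4 by 1.20 ± 0.16, the latter from 95.6, 80.0 and 86.3 to 158, 169 and 247 CPM. ACO1 rose by 1.83 ± 0.35 and ISCU, a scaffold for iron-sulfur clusters, by 0.93 ± 0.18, each the only called gene of its list, of 3 and 7 tested. The copper ferroxidase CP was 2.79 ± 0.73 higher, 1 of 2 tested in its list, at 108, 70.6 and 74.0 CPM from 39, 18 and 9 UMIs. The T-cell gate held 32.1, 46.8 and 33.6 CPM of CP and the CAMP gate 822, 829 and 983 CPM, and the part of RNA from CAMP cells in the C1Q level was not tested. Heme breakdown split, with LRP1, the receptor for hemopexin-bound heme, and BLVRB higher by 1.10 ± 0.31 and 0.93 ± 0.29 and the exporter ABCG2 lower (-2.18 ± 0.55). In cells of exactly 1 gate the calls for LRP1 (0.89 ± 0.33) and ABCG2 (-7.27 ± 2.67) were lost, each at an edgeR adjusted p of 0.052, and BLVRB was higher by 4.33 ± 0.25. Heme synthesis had 1 higher, ALAS1 (2.92 ± 0.47), and 1 lower, of 9, with a median of -0.89 beside -0.10 over all genes. In cells of exactly 1 gate it had 3 higher and none lower and a median of 0.79 beside -0.21. Against non-cycling erythroblasts 7 of 9 heme synthesis genes were lower in C1Q cells, with ALAS1 the 1 that was higher (3.07 ± 0.60).

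Cells of the CAMP gate, named for a neutrophil granule protein, held less HMOX1 and CD163 than VCAN cells. FTL was 4103, 3624 and 3653 CPM, and FTH1 was 1801, 1751 and 1411 CPM, below all 3 VCAN values. TFRC was 24.7, 40.4 and 16.6 CPM, SLC40A1 7.03, 9.86 and 9.53 CPM, HMOX1 13.7, 10.7 and 12.9 CPM and SLC11A1 4.69, 14.6 and 13.9 CPM, each below the VCAN value of the same library except SLC40A1 in marrow 3, at 9.53 against 8.74 CPM. In cells of exactly 1 gate SLC40A1 was instead higher in CAMP cells of all 3 libraries, at 6.65, 9.89 and 9.62 CPM against 5.27, 2.49 and 1.57 CPM. FTL was lower there in all 3, at 4084, 3614 and 3647 CPM against 5602, 5773 and 4827 CPM. TFRC and HMOX1 thus lay at or under the T-cell gate's 20.3, 30.8 and 19.7 CPM and 33.0, 54.2 and 43.7 CPM, apart from TFRC in marrows 1 and 2. CD163 was near 0, at 0.323, 0.125 and 0.0851 CPM. Of 7 members tested 2 were called higher and 3 lower than in VCAN cells, where 71.5% of genes were called, 35.1% higher and 36.4% lower.

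The scaling decides much of this comparison. TMM factors, which assume that most genes are level, put the median of all genes at -0.04, and with total UMIs alone it was -1.11, a shift of -1.07, with 14.1% of calls higher in place of 49.1%. FTL was called higher by 1.07 ± 0.15 (edgeR adjusted p = 2.1e-07) with TMM, and was at -0.01 without scaling factors. SLC40A1 was called higher by 0.80 ± 0.21 (adjusted p = 0.0013) and was at -0.27 without them, while FTH1 went from -0.20 (adjusted p = 0.21) to -1.28 (adjusted p = 1.8e-11) and was called with only these 2 gates in the fit (-0.29, adjusted p = 0.013). HMOX1 (-1.51 ± 0.30, adjusted p = 0.00027) and CD163 (-2.30 ± 0.65, adjusted p = 0.0030) were lower either way, though the CD163 call was lost without marrow 3 and with a mitochondrial limit of 20%. TFRC was called lower (-1.08 ± 0.14) but turned to 2.19 ± 0.23 in cells of exactly 1 gate, where VCAN cells held 9.33, 10.6 and 12.1 CPM and CAMP cells 20.2, 39.3 and 12.3 CPM. SLC11A1 was not called (-0.26 ± 0.18, edgeR adjusted p = 0.19) but was in cells of exactly 1 gate (-1.18 ± 0.19, adjusted p = 1.1e-06). In those cells, with TMM, FTL was at 0.65 ± 0.20 (adjusted p = 0.0082), although its CPM were lower, and SLC40A1 at 2.59 ± 0.29 (adjusted p = 1.7e-10). FTH1 was at -0.22 ± 0.16 (adjusted p = 0.26), HMOX1 at -2.66 ± 0.28 (adjusted p = 1.0e-06) and CD163 at -4.46 ± 0.67 (adjusted p = 4.1e-07).

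Outside the 8 members, CP, a ferroxidase, was high in CAMP cells, at 822, 829 and 983 CPM against 11.6, 19.2 and 12.9 CPM (7.09 ± 0.56, edgeR adjusted p = 1.8e-08). ALAS1 was 381, 352 and 300.1 CPM against 51.6, 60.8 and 46.5 CPM (3.88 ± 0.43, adjusted p = 8.4e-07). The other 8 heme synthesis genes were lower, among them FECH (-3.61 ± 0.24) and ALAS2 (-3.32 ± 0.41), with a median of -2.10 over the list. In cells of exactly 1 gate 4 of the 9 were higher and 1 lower, with a median of 0.13, FECH at -0.05 ± 0.56 (edgeR adjusted p = 0.97) and ALAS2 turned to 0.78 ± 0.24 (adjusted p = 0.0044), beside erythroblast markers of 2263, 1594 and 2332 CPM in the undivided VCAN gate. In the remaining lists 1 higher and 1 lower of 3 sensing genes, 2 and 1 of 3 reductases, 3 and 3 of 7 mitochondrial genes, 2 and 4 of 6 heme handling genes, 1 and 1 of 2 in the transferrin list (CP and SMAD4) and 2 and 1 of 5 transcription factors were called.

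The balance of the ferritin chains set the GATA1 progenitor and erythroblast gates apart from the other gates of whole marrow. Lineages did not all separate: the C1Q gate (0.50 to 0.68 FTH1 UMIs per FTL UMI) overlapped the VPREB1 gate (0.56 to 0.68). UMIs were counted at the 3' end, 1 per captured transcript, so they carry no length, but both genes may be captured with unequal efficiency and only differences between gates can be read. FTH1 UMIs per FTL UMI were 1.62 ± 0.055 (SD, n = 3) in cycling erythroblasts, 1.55 ± 0.054 in non-cycling ones and 1.46 ± 0.20 in GATA1 progenitors. They were 1.04 ± 0.011 in the VCAN gate, 0.70 ± 0.022 in the stem-like gate, 0.61 ± 0.095 in the C1Q gate, 0.61 ± 0.059 in the VPREB1 gate and 0.44 ± 0.049 in the CAMP gate. The GATA1 progenitor gate and both erythroblast gates lay above all others, with a lowest value of 1.25 in a GATA1 progenitor sum and a highest of 1.05 elsewhere, and they overlapped one another. In VCAN cells of exactly 1 gate the ratio was 0.743, 0.798 and 0.766. CD34-sorted GATA1 progenitors had 1.12 and 1.43 and sorted stem-like cells 0.641 and 0.795. The second FTH1 row gave 0.10% to 1.49% of FTH1 UMIs in whole-marrow gates, and since the 2 rows share a symbol, reads could be split between near-identical copies and its values are uncertain.

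**Figure D5:**
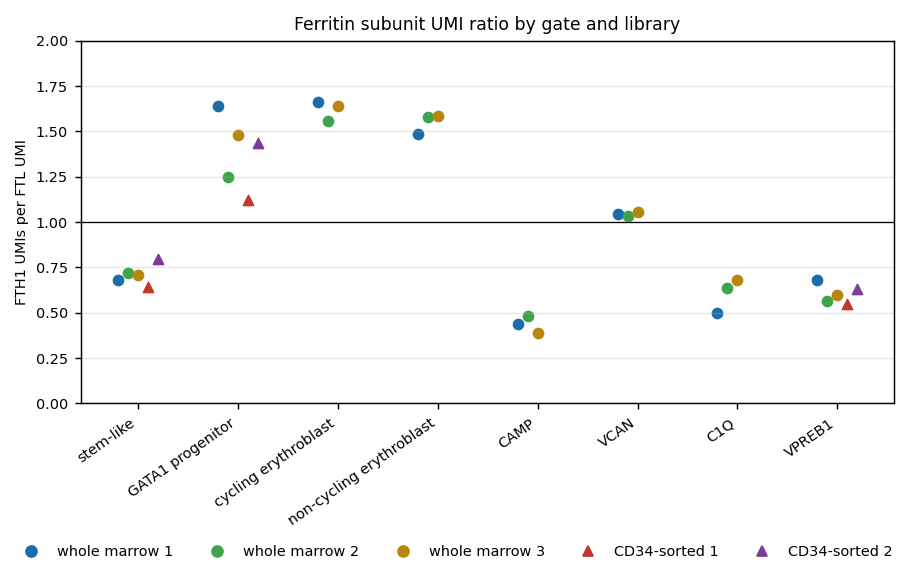
UMIs of FTH1 per UMI of FTL in each gate, 1 point per library, with whole marrow and CD34-sorted libraries marked. The GATA1 progenitor gate and both erythroblast gates of whole marrow lie between 1.25 and 1.66 and every other gate of whole marrow at or below 1.05.

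Within the CD34-sorted libraries the GATA1 progenitor gate was set against the stem-like gate, of whose cells 558 and 803 were also in the VPREB1 gate. The sorted GATA1 progenitors held 56.0 and 76.7 CPM of erythroblast markers beside 64.8 and 100.2 CPM of eosinophil, basophil and mast cell markers. Of 6 members tested 4 were higher and none lower, where 21.3% of 10872 genes were called, 9.45% higher and 11.8% lower. TFRC was 55.6 and 30.4 CPM in GATA1 progenitors of CD34-sorted 1 and 2 against 32.6 and 18.1 CPM in stem-like cells, higher in both libraries although the ranges overlap (0.83 ± 0.13, edgeR adjusted p = 0.0025). This call was lost without the library block (adjusted p = 0.46). SLC11A2 was 1.64 and 1.87 CPM, from 8 and 13 UMIs, against 0.238 and 0.0856 CPM, from 5 and 2 UMIs (3.51 ± 0.61, adjusted p = 0.0040). FTH1 was 1898 and 2132 CPM against 1011 and 1127 CPM (0.98 ± 0.09, adjusted p = 0.00013). SLC40A1 was 8.62 and 13.0 CPM against 0.381 and 0.556 CPM, the steepest of these rises (4.59 ± 0.25, adjusted p = 8.4e-06). In the last 3 genes the gates did not overlap. FTL, at 1690 and 1487 CPM against 1576 and 1419 CPM, did not pass (0.15 ± 0.09, adjusted p = 0.29), nor did HMOX1, which rested on 1 and 2 UMIs in the progenitors (-1.31 ± 0.85, adjusted p = 0.31).

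The same gates in whole marrow gave like directions as values. Between stem-like cells and GATA1 progenitors, SLC40A1 stood at 1.13, 1.98 and 2.16 CPM and 68.9, 23.9 and 20.8 CPM, FTH1 at 1370.0, 1177 and 1165 CPM and 2867, 2579 and 2716 CPM, and TFRC at 22.6, 49.4 and 22.7 CPM and 101, 161 and 59.6 CPM. FTL went down in marrow 1, from 2019 to 1745 CPM, and up in the other 2, from 1632 to 2065 CPM and from 1642 to 1833 CPM. SLC40A1 and FTH1 thus stood higher in GATA1 progenitors in 5 of 5 libraries, though the sorted libraries come from 2 of the same dogs.

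Heme genes had begun to rise at this step in the sorted cells. Of 8 heme synthesis genes tested 6 were higher and none lower, with a median of 0.66 beside -0.02 over all genes, UROD among them (1.63 ± 0.11, edgeR adjusted p = 2.9e-05). ALAS2 was still at 0 and 0.14 CPM in sorted progenitors. The biliverdin reductases BLVRA and BLVRB were higher by 2.01 ± 0.11 and 1.81 ± 0.19, among 3 of 6 heme handling genes. TFR2, a second transferrin receptor that binds the erythropoietin receptor, stood at 2.46 and 2.16 CPM against 0.05 and 0.04 CPM (5.50 ± 0.63, adjusted p = 0.00047) and was the called gene among 4 of its list. The ferrireductase STEAP3 was higher by 2.20 ± 0.57, at 1.03 and 1.01 CPM, and SLC39A14 by 1.07 ± 0.14, with CYBRD1 lower (-0.67 ± 0.20), so 2 of 4 in that list were higher and 1 lower. Of 10 mitochondrial genes 3 were higher, and of 4 transcription factors BACH1 and NFE2L2 were higher by 0.57 ± 0.15 and 0.43 ± 0.11 and HIF1A was lower (-0.36 ± 0.11). None of the 3 sensing genes was called. Without scaling factors 33.6% in place of 44.4% of all calls were higher.

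The early B-lineage VPREB1 gate was set against stem-like cells in the same libraries as a lymphoid counterpart. None of 6 members was called by edgeR with TMM over all gates or by DESeq2, where edgeR called 30.2% of genes, 12.3% higher and 17.9% lower, and 1 member, HMOX1, had an unadjusted edgeR p under 0.05. Without scaling factors 58.0% in place of 40.8% of calls were higher, with a shift of the median of 0.13. FTH1 was 931 and 1104 CPM in VPREB1 cells against 1011 and 1127 CPM (-0.20 ± 0.09, edgeR adjusted p = 0.13) and FTL 1700.0 and 1757 CPM against 1576 and 1419 CPM (0.09 ± 0.09, adjusted p = 0.51). TFRC was 35 and 14.8 CPM against 32.6 and 18.1 CPM (-0.18 ± 0.13, adjusted p = 0.31). SLC40A1, at 0.138 and 0.340 CPM, gave -1.06 ± 0.50 (adjusted p = 0.15), HMOX1 1.03 ± 0.38 (adjusted p = 0.073) and SLC11A2 -2.06 ± 1.22 (adjusted p = 0.24), each on few UMIs. HMOX1 was called with total UMIs alone (1.15, edgeR adjusted p = 0.039) and with only these gates in the fit (1.03, adjusted p = 0.021), and SLC40A1 with doublets removed (-2.03, adjusted p = 0.042). The gates share 558 and 803 cells in CD34-sorted 1 and 2. In heme synthesis 2 of 8 genes were higher and 3 lower, FECH at -2.55 ± 0.17, and 1 of 10 mitochondrial genes was higher and 4 lower.

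Sorting for CD34 lowered all 8 members in the library as a whole. CD34-sorted libraries 1 and 2 held 34 and 19.4 CPM of TFRC against 80.5, 141 and 64.5 CPM in whole marrows 1, 2 and 3, 1.31 and 1.78 CPM of SLC40A1 against 10.6, 11.2 and 9.0 CPM, and 1.41 and 3.08 CPM of HMOX1 against 60.4, 45.4 and 36.8 CPM. FTH1 was 1049.7 and 1251 CPM against 3309, 3509.9 and 2967 CPM and FTL 1667 and 1563 CPM against 3807, 3462 and 3292 CPM. No member overlapped between the groups, of 2 and 3 libraries, and the share of all genes without overlap is not given here. All 8 were called lower, where 33.2% of 12482 genes were called, 15.9% higher and 17.3% lower, with log2 fold changes of -1.41 ± 0.16 for FTL, -1.79 ± 0.16 for FTH1, -2.10 ± 0.41 for TFRC and -3.01 ± 0.24 for SLC40A1, and of -4.69 ± 0.48, -5.93 ± 0.86 and -5.00 ± 0.92 for HMOX1, SLC11A1 and CD163 (edgeR adjusted p between 0.00088 and 0.015). SLC11A2 changed by -2.03 ± 0.37, at 0.458 and 0.360 CPM against 1.06, 1.85 and 1.28 CPM. The TFRC call was lost without CD34-sorted 2 and the SLC11A2 call without either sorted library. Fewer cells of a type and less RNA in each cannot be told apart in such sums, and the sorted libraries held 1 and 0 cycling erythroblasts and 5 and 3 C1Q cells. Without scaling factors 66.5% in place of 48.0% of calls were higher and the median of all genes moved by 0.26. All 9 heme synthesis genes were lower too, with a median of -2.44 beside 0.05 over all genes.

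Within gates the sort gave few calls. In stem-like cells 3 members were abundant enough to test and none was called, where 0.133% of 6012 genes were: TFRC -0.16 ± 0.44, FTH1 -0.13 ± 0.14 and FTL -0.15 ± 0.15 (edgeR adjusted p of 0.95 to 0.97). None had an unadjusted p under 0.05, and DESeq2 called 0 as well. Stem-like FTL was 1576 and 1419 CPM sorted against 2019, 1632 and 1642 CPM in whole marrow. In GATA1 progenitors none of 4 was called by edgeR or by DESeq2, where edgeR called 0.615% of 6669 genes, 0.255% higher and 0.36% lower, although 3 members, TFRC, FTH1 and SLC40A1, had an unadjusted p under 0.05. TFRC was 55.6 and 30.4 CPM sorted against 101, 161 and 59.6 CPM and SLC40A1 8.62 and 13.0 CPM against 68.9, 23.9 and 20.8 CPM, below every whole-marrow value, with -1.26 ± 0.44 (adjusted p = 0.33) and -1.64 ± 0.53 (adjusted p = 0.30). A fit that blocked on the dog called both, TFRC at -1.24 ± 0.20 (adjusted p = 0.00014) and SLC40A1 at -1.02 ± 0.31 (adjusted p = 0.036), and 681 genes in place of 41. So did edgeR with no low-count filter, at -1.21 ± 0.26 (adjusted p = 0.00018) and -1.58 ± 0.34 (adjusted p = 0.00028). FTH1 at -0.35 ± 0.13 and FTL at -0.17 ± 0.14 were not called in either fit. Erythroblast markers summed to 177, 234 and 319 CPM in whole-marrow GATA1 progenitors and to 56.0 and 76.7 CPM in sorted ones, the other cell type markers given above also differed, and their part in these differences was not tested. ALAD, of heme synthesis, was the 1 gene called in the 7 lists (-1.42 ± 0.20, edgeR adjusted p = 0.034).

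Over the 30 sums of gate and library with at least 20 cells, the genes whose log2(CPM + 10) tracked each member most closely among 5815 genes were ranked by Pearson correlation, as a description only, since sums of 1 library share a dog and depth. TFRC was nearest to KLF3 (r = 0.93), an unnamed gene, ENSCAFG00000009692 (0.91), and MGST3 (0.91). FTH1 was nearest to CDH1 (0.94), TTC38 (0.93) and BLVRB (0.90), while FTL was nearest to HMOX1 (0.94), IL1R2 (0.93) and CD68 (0.90). Among these 3 each, the ferritin chains had no neighbour in common. SLC40A1 was nearest to CREG1 (0.88), FTH1 (0.85) and TTC38 (0.79), HMOX1 to CD68 (0.96), IL1R2 (0.95) and EPB41L3 (0.95), and SLC11A1 to CSF1R (0.92), PSAP (0.89) and CLEC12A (0.88). CD163 was nearest to PID1 (0.99), VSIG4 (0.99) and MSR1 (0.99). CD163 was abundant only in the C1Q sums, so these few sums largely set its r. HMOX1 and FTL also stood highest in the C1Q sums. SLC11A2, on a mean of 1.24 CPM, was nearest to PCYOX1 (0.85), WRN (0.81) and FBXO7 (0.80).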

How the data were processed

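The authors deposited raw UMI counts, whole numbers that were not normalized. They came from Cell Ranger, whose version is 7.0.1 in the headers of the deposited files and 7.1.0 in the submitters' processing notes, which also name the build CanFam3.1. No coordinates or sequences were used. The 8 members, the gates and the gene lists were chosen with earlier results of these data known.

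UMIs were summed per gate and library where at least 20 cells were present, since cells are not replicates. Sums were tested with edgeR 4.0.16 (quasi-likelihood, TMM scaling, filterByExpr, robust), with Benjamini-Hochberg adjustment over all genes at 0.05 and the 12 gate genes left out. Gates of whole marrow shared 1 fit, as did those of sorted libraries, with the library as a block. Sorted and whole libraries were compared without a block. SE is the absolute log2 fold change over the square root of F. The fits were tested on simulated data. Genes named were the members, their 3 nearest genes by pattern and the 2 largest called rises and falls of each of 7 lists, except 1 gene that is not reported here. Alternatives were DESeq2 1.42.0, other scalings, filters, cell limits, gate rules, blocks and left-out libraries. Doublets were kept, and removing them was an alternative. Intervals are exact binomial and, like floors of 3 counts, cover counting error only.

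The labels' protocols say that the sorted cells came from marrows 2 and 3. Leading digits shared by library names in the labels put CD34-sorted 1 with whole marrow 2 and CD34-sorted 2 with whole marrow 3, which is a reading of the names and not a stated pairing. Under it, differences between the dogs correlated across genes between sorted and whole libraries at r = 0.29 over all cells, 0.22 in stem-like cells, 0.22 in GATA1 progenitors and 0.45 in VPREB1 cells.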

Additional observations from a re-analysis of the deposited data

Results flagged for a closer look

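FTH1 differed in direction between the groups of libraries when VPREB1 cells were set against stem-like cells. In whole marrow it was higher in VPREB1 cells of all 3 dogs, at 1623, 1219 and 1664 CPM against 1370.0, 1177 and 1165 CPM. In the CD34-sorted libraries it was lower in both, at 931 and 1104 CPM against 1011 and 1127 CPM, a mean difference of -0.0738 in log2(CPM + 10). The gates shared 43 of 62, 8 of 29 and 21 of 44 stem-like cells in whole marrow and 558 and 803 cells in the sorted libraries. In marrow 2 the sums were small, with 532 FTH1 UMIs in VPREB1 cells and 595 in stem-like cells. The difference between the groups was not tested.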

How the results depend on the processing

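Counts of genes called stayed within 1.5 times in 100 of 136 alternatives. Over 54 member fold changes, alternatives kept direction and call in 680 of 734, lost the call in 26, gained it in 10 and turned in 18. Outside these, CD163 turned by DESeq2, to -0.75 in cycling minus GATA1 progenitors and 2.08 in non-cycling minus cycling, as did SLC11A1 in the latter without marrow 1, to 0.02. With 3 whole-marrow and 2 sorted libraries and thin gates, depth limits C1Q, SLC11A2 and CD163 values most. The causes of the changes below were not tested. Non-cycling minus cycling erythroblasts gave 282 calls with gate thresholds doubled and 554 with no replicate block, against 1039. C1Q minus VCAN gave 2136 with a mitochondrial limit of 20%, 1639 in cells of exactly 1 gate and 705 with no block, against 1075. C1Q minus non-cycling erythroblasts gave 2837 with the 20% limit and 868 with only both gates fitted, against 1853. Sorted GATA1 minus stem-like gave 1453 by DESeq2, 999 in cells of exactly 1 gate and 666 with no block, against 2312, and VPREB1 minus stem-like 1796 and 663 by DESeq2 and with no block, against 3278. In stem-like cells sorted minus whole gave 35 by DESeq2, 31 with no low-count filter, 2 without doublets, 5 with the 20% limit and 17 with the dog block, against 8 (262 at an unadjusted p under 0.05). In GATA1 progenitors it gave 151, 557, 92 in cells of exactly 1 gate, 27 with thresholds doubled and 681 with the dog block, against 41. The paired fit is a reading of library names.

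Leaving out each library gave 2666 to 3063 calls for cycling minus GATA1 progenitors, 329 (without marrow 1) to 800 (without marrow 3) for non-cycling minus cycling, 559 to 674 for C1Q minus VCAN, 4982 to 5283 for CAMP minus VCAN, 1000 to 1506 for C1Q minus non-cycling, 1733 (without CD34-sorted 1) to 4660 for all cells, 6 to 12 for stem-like cells and 0 to 184 for GATA1 progenitors. That 0 came from edgeR without either sorted library (426 and 395 genes at an unadjusted p under 0.05), and 184 without marrow 1. Within the 2 sorted libraries such fits could not be fitted.

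Directions turned as follows. FTL in non-cycling minus cycling was 0.0503 with DESeq2 size factors, 0.0497 by DESeq2 and 0.0410 unscaled. SLC40A1 there was -0.15 with no filter, -0.0161 without doublets, -0.0630 in cells of exactly 1 gate, -0.39 with thresholds doubled, -0.10 in cells of 5000 UMIs or more (an alternative chosen after seeing the data, as was total UMIs) and -0.0628 to 0.124 with a library left out. TFRC was 1.66 in C1Q minus VCAN and 2.19 in CAMP minus VCAN in cells of exactly 1 gate. FTL and SLC40A1 in CAMP minus VCAN were -0.0146 and -0.270 unscaled. TFRC in stem-like cells, sorted minus whole, was 0.15 in cells of exactly 1 gate, 0.65 with thresholds doubled and -0.70 to 0.27 with a library left out.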
